A study of Mus musculus with 9 samples.

Results

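The clustered protocadherins are cadherin-like cell-surface proteins encoded by neighbouring genes in an alpha, a beta and a gamma cluster. Members were taken as every row of the count table whose symbol starts with Pcdha, Pcdhb, Pcdhga, Pcdhgb or Pcdhgc with a member number, the alpha C-types Pcdhac1 and Pcdhac2 included. This gave 57 of 53280 genes, with 13 in the alpha cluster, 22 in the beta cluster and 22 in the gamma cluster. Of these, 56 passed the filter on low counts and were tested, and Pcdhb1 did not.

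The tested animals were Opn4 knockout mice (Opn4KO), which lack the photopigment melanopsin that makes some retinal ganglion cells light sensitive, and they were set against wildtype littermates (Opn4WT) from crosses of Opn4 heterozygotes. Neural retina was taken at postnatal day 4 from pups of both genotypes kept under about 300 lux, between 6 and 7 h of zeitgeber time. Each of the 5 knockout and 4 wildtype samples pooled 4 retinas of 2 animals, and poly-A RNA was read as pairs of 150 bases. The sources used here give neither sex nor strain, and the knockout was inherited through the crosses, so it is not limited to the ganglion cells. The pools held 65530419 to 86132643 counts. Opn4 itself had 1.07 to 1.82 CPM (counts relative to the scaled library total) in knockout pools and 11.4 to 12.0 CPM in wildtype pools, with a log2 fold change of -3.10 ± 0.14 (SE; edgeR adjusted p = 1.28e-07; exact two-sided permutation p = 0.00794, the smallest that 9 pools allow). Opn4 is on chromosome 14 and the clustered protocadherins are on chromosome 18, so the members do not neighbour the mutated gene. All 8 markers of neural retina were present, at a summed 3838 to 4148 CPM in knockout and 3722 to 3825 CPM in wildtype pools.

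In an alpha or gamma gene, one large variable exon codes for the extracellular and transmembrane part, and it is spliced to small constant exons that all members of that cluster share. The beta genes have no constant exons. Neurons are known to choose a few promoters each, through the insulator protein CTCF, cohesin and DNA methylation, whereas the C-type members at the end of the alpha and gamma clusters are expressed more broadly. Proteins of the same identity bind between cell surfaces, and in the mouse retina the gamma cluster is known for keeping the dendrites of one starburst amacrine cell from overlapping and for the survival of interneurons. Each member's level in whole retina is therefore a sum over many cells, in which fewer cells of a type and less RNA per cell cannot be told apart.

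The locus runs over 912 kb of the plus strand, from 36930184 to 37841873 on chromosome 18 (GRCm38, GENCODE M21). The alpha cluster covers 36930184 to 37187661 (257 kb), the beta cluster 37264938 to 37524479 (260 kb) and the gamma cluster 37661793 to 37841873 (180 kb). The members are annotated as protein coding, except Pcdhgb8, a polymorphic pseudogene. The symbol Pcdha11 stands for 2 gene IDs, so its row may hold both.

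All 3 clusters were expressed in the P4 retina, and the C-type genes Pcdhgc3 and Pcdhgc4 had the highest levels in both genotypes. Levels per transcript length were read from the transcript table as TPM (transcript abundance scaled to transcript length and library total, as rescaled by the authors), summed over the transcript rows of a gene. Pcdhgc3 had the highest level of the family, with 41.8, 47.7, 56.3, 49.9 and 58.6 TPM in knockout pools 1 to 5, against 46.8, 43.9, 53.6 and 47.5 TPM in wildtype pools 1 to 4. Pcdhgc4, the gamma member known from mouse knockouts to be needed for neuronal survival, followed with 24.6, 27.98, 26.7, 25.96 and 31.5 TPM in knockout pools, against 26.2, 21.4, 31.2 and 22.3 TPM in wildtype pools. Pcdhac2, known in mice for the tiling of serotonergic axons, followed them in knockout pools and stood below Pcdhgb6 and Pcdhga11 in wildtype pools, with 13.8, 14.9, 15.4, 16.2 and 16.5 TPM in knockout pools, against 13.9, 14.8, 13.0 and 13.2 TPM in wildtype pools. For all 3 genes the pools of both genotypes overlapped.

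The other C-types were at ordinary levels for the family. Pcdhgc5 averaged 4.32 ± 1.34 TPM in knockout and 4.98 ± 1.24 TPM in wildtype pools (SD, n = 5 and 4). Pcdhac1 averaged 2.41 ± 0.41 TPM in knockout and 2.17 ± 0.26 TPM in wildtype pools. Near the level of Pcdhac2 were Pcdhb17 (15.1 ± 0.5 TPM in knockout, 13.6 ± 0.5 in wildtype), Pcdhga11 (14.3 ± 1.0 in knockout, 14.2 ± 0.7 in wildtype) and Pcdhgb6 (13.4 ± 1.3 in knockout, 14.2 ± 0.4 in wildtype). Neighbours in this order from Pcdhac2 to Pcdhgb6 differed, within each genotype, by no more than the larger SD of the pair. Of the 57 members, 8 had a mean of at least 10 TPM, 45 lay between 2 and 10 TPM, and 4 were lower, namely Pcdha1, Pcdha8, Pcdhb1 and Pcdhgb8. The median level of a member was 5.55 TPM in the alpha cluster, 4.82 TPM in the beta cluster and 4.94 TPM in the gamma cluster. Pcdhb1 was near absent, with 5 counts in knockout pool 3, 15 counts in wildtype pool 4 and 0 counts in the other pools.

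**Figure D1:**
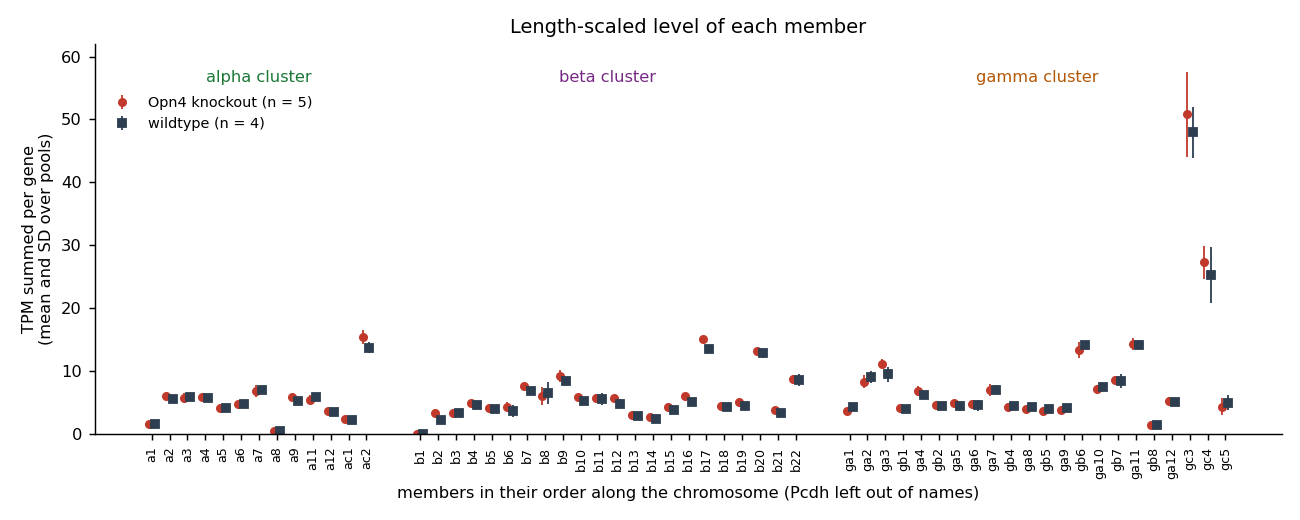
Length-scaled level of each member (TPM summed over transcript rows of a gene, mean and SD over pools) in knockout (circles, n = 5) and wildtype retina (squares, n = 4), in chromosomal order. Pcdhgc3 and Pcdhgc4 stand above all other members, and most members lie between 2 and 10 TPM in both genotypes.

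By TPM, the gamma cluster gave 51.6% of the family's transcripts, the beta cluster 31.3% and the alpha cluster 17.1%. Within the alpha cluster, Pcdhac2 took 28.8 ± 1.6% of the counts in knockout and 26.9 ± 1.2% in wildtype pools. Within the gamma cluster, Pcdhgc3 took 24.2 ± 1.7% of the counts in knockout and 23.5 ± 1.3% in wildtype pools, and Pcdhgc4 took 12.4 ± 0.9% in knockout and 10.96 ± 0.56% in wildtype pools. In the beta cluster, which has no C-type, Pcdhb17 took 13.8 ± 0.3% of the counts in knockout and 13.8 ± 0.6% in wildtype pools.

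No single member passed edgeR's test between genotypes on the counts. By the quasi-likelihood test with Benjamini-Hochberg adjustment over 21150 genes, 0 of 56 members were called at 0.05, where 3.59% of all tested genes were called (1.34% higher and 2.25% lower in knockout). At an unadjusted p under 0.05 there were 13 of 56 members (23.2%), against 16.5% of all tested genes. Of these, 11 had higher values in knockout, beside 8.6% of all tested genes, and 2, Pcdhga2 and Pcdhgb5, had lower values, beside 7.91%. The other tool run on the same counts, DESeq2, called 2 members, Pcdhga3 (adjusted p = 0.0224) and Pcdhgc4 (adjusted p = 0.0446), both higher in knockout. The CPM ranges of the genotypes were apart for 0 of 56 members, and for 8.29% of all tested genes (3.92% with knockout higher).

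The direction of the fold changes was then read cluster by cluster. In the beta cluster, 20 of 21 tested members had a positive fold change, the exception being Pcdhb8, while over all tested genes the share with a positive value was 50.4%. The alpha cluster had 9 of 13 positive and the gamma cluster 10 of 22. The median log2 fold change was 0.15 in the beta cluster, 0.03 in the alpha cluster and -0.01 in the gamma cluster, beside 0.00117 over all tested genes. The beta genes neighbour each other and were measured in the same 9 libraries, so their values are not independent of one another, and no test was made over the cluster.

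**Figure D2:**
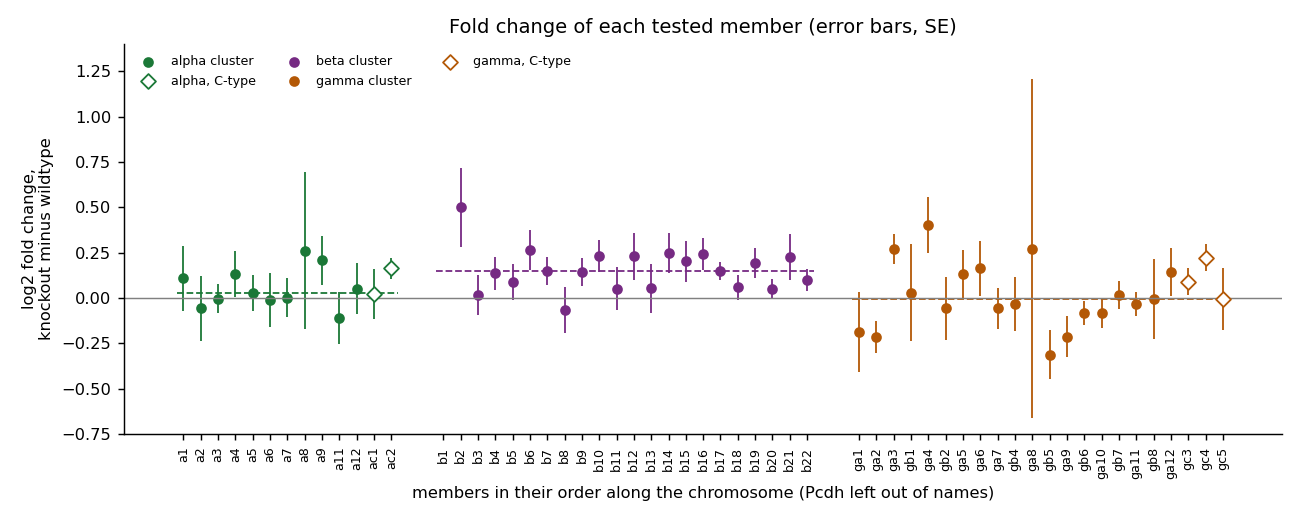
Log2 fold change (knockout minus wildtype, edgeR, error bars SE) of the 56 tested members in chromosomal order, with C-types as open diamonds and the median of each cluster as a dashed line. Beta members lie above 0 with the exception of Pcdhb8, while alpha and gamma members lie on both sides; the wide bar is Pcdhga8.

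The summed counts of the beta cluster, a measure chosen after seeing the data, were higher in every knockout pool than in every wildtype pool. They came to 297.44, 306.57, 304.99, 295.77 and 303.7 CPM in knockout pools 1 to 5, against 278.33, 270.19, 256.07 and 290.83 CPM in wildtype pools 1 to 4. Wildtype pool 4 lay nearest to the knockout pools and wildtype pool 3 farthest from them. The knockout mean was 302 ± 5 CPM and the wildtype mean 274 ± 15 CPM (SD, n = 5 and 4), a difference of 10.2%. The ranges were also apart under RLE, upper-quartile and no scaling. Upper-quartile scaling left the smallest gap (294.65 CPM as the lowest knockout and 292.47 CPM as the highest wildtype pool). For single genes, CPM ranges were apart for 0 of 21 tested beta members and for 8.29% of all tested genes (3.92% with knockout higher).

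The alpha and gamma sums overlapped between genotypes. The alpha cluster summed to 198.76, 199.8, 207.5, 209.79 and 221.29 CPM in knockout pools, against 204.33, 200.78, 185.42 and 198.99 CPM in wildtype pools, a mean difference of 5.09%. The gamma cluster summed to 512.32, 531.19, 540.3, 546.15 and 598.58 CPM in knockout pools, against 535.77, 511.18, 530.56 and 535.02 CPM in wildtype pools, a mean difference of 3.33%. Knockout pool 5 was the highest pool for both sums and knockout pool 1 the lowest knockout pool for both. Knockout pools 1 and 2, which held the most transcript of the lens gene Cryaa, were also the lowest knockout pools for both sums. Leaving them out therefore had to raise the lowest knockout value. It was then above the highest wildtype pool for the alpha sum (207.5 against 204.33 CPM) and for the gamma sum (540.3 against 535.77 CPM). The share of all genes that come apart in the same pools was not counted, so no conclusion is drawn from this. Whether the clusters differ from one another in their response was not tested.

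**Figure D3:**
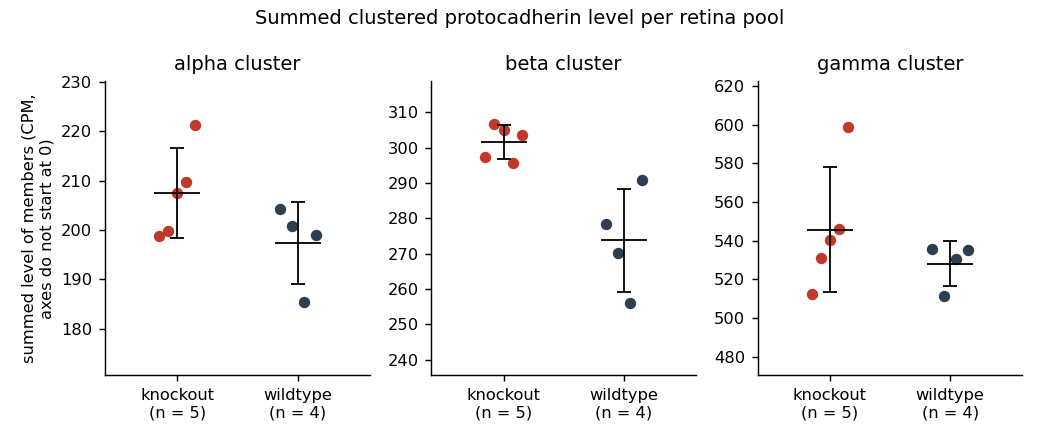
Summed CPM of all members of each cluster per pool (points), with mean and SD (bars), in knockout (n = 5) and wildtype pools (n = 4); the axes do not start at 0. The beta sums of the genotypes do not overlap (lowest knockout pool 295.77, highest wildtype pool 290.83 CPM), and the alpha and gamma sums do.

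Other markers moved with genotype in the same pools, where edgeR called 1.34% of all tested genes higher and 2.25% lower. The neural retina sums given above did not overlap between genotypes. In that list Nrl was called higher (log2 fold change 0.29, SE 0.06, edgeR adjusted p = 0.0153). Pax6 was called lower (log2 fold change -0.16, SE 0.04, edgeR adjusted p = 0.0261). The summed progenitor markers were at 1476 to 1879 CPM in knockout and 2219 to 2348 CPM in wildtype pools, with 3 of 5 genes called lower (Ccnd1, Mki67 and Top2a). The 5 red blood cell markers were all called lower, at a summed 73.7 to 99.3 CPM in knockout and 110 to 335 CPM in wildtype pools. Lens markers were at 2.47 to 10.7 CPM in knockout and 3.17 to 3.28 CPM in wildtype pools. The gene Cryaa was called higher in knockout (log2 fold change 4.16, SE 1.01, edgeR adjusted p = 0.0394). Among them Cryaa, a lens crystallin, had 4.65, 3.28, 0.2, 0.0939 and 0.737 CPM in knockout pools, against 0.0812, 0.0954, 0.0964 and 0.124 CPM in wildtype pools, so knockout pools 1 and 2 stood above the rest. Of 6 ganglion cell markers 1 was called higher (Slc17a6), and of 11 amacrine cell markers 1 was called lower (Gad2). The ganglion cell list had a median log2 fold change of -0.13. Its genes Rbpms, Pou4f1, Pou4f2 and Isl1 had negative values and Nefl a positive value, none of these called. Of the amacrine cell markers, 7 had an unadjusted p under 0.05 by edgeR, in both directions (such as Slc6a9 at 0.24 and Tfap2a at -0.19). The sums of both lists overlapped between genotypes. They were 792 to 927 CPM in knockout and 833 to 899 CPM in wildtype for ganglion cells. For amacrine cells they were 1156 to 1269 CPM in knockout and 1205 to 1284 CPM in wildtype. Pigment epithelium (11.9 to 29.96 CPM in knockout, 17.4 to 22.3 in wildtype), endothelium (29.5 to 34.6 CPM in knockout, 31.4 to 35.0 in wildtype) and fibroblast or sclera markers (2.88 to 4.35 CPM in knockout, 2.46 to 4.57 in wildtype) overlapped between genotypes and had no called gene, and Lum was at 0 in all pools. The part of these markers in the protocadherin values was not tested.

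Among the beta genes, 7 of 21 had an unadjusted p under 0.05, all with higher values in knockout, against 8.6% of all tested genes with such a p and higher values. These were Pcdhb2, Pcdhb6, Pcdhb10, Pcdhb14, Pcdhb16, Pcdhb17 and Pcdhb19, with adjusted p-values from edgeR between 0.147 and 0.282. Pcdhb17, the beta gene with the highest level, had 41.5, 42.2, 43.5, 39.6 and 41.8 CPM in knockout pools, against 39.9, 36.4, 36.1 and 38.2 CPM in wildtype pools. Its pools overlapped only through knockout pool 4 and wildtype pool 1, and its log2 fold change came to 0.15 ± 0.05 (SE; edgeR adjusted p = 0.147, the smallest of the beta cluster). Pcdhb2 had the largest fold change of the beta cluster at a low level, with 3.89, 5.61, 6.21, 4.49 and 4.85 CPM in knockout pools, against 2.39, 3.94, 2.64 and 5.21 CPM in wildtype pools. Wildtype pools 2 and 4 lay within the knockout range, pool 2 just above its lower end. The fitted log2 difference of Pcdhb2 came to 0.50 ± 0.22 (SE; edgeR adjusted p = 0.274).

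Pcdhb6 had 6.59, 6.03, 7.98, 7.57 and 7.55 CPM in knockout pools, against 5.76, 6.42, 5.29 and 6.31 CPM in wildtype pools. Here knockout pool 2 lay below the highest wildtype pools, and the fitted log2 difference of Pcdhb6 came to 0.27 ± 0.11 (SE; edgeR adjusted p = 0.239). Pcdhb20, second in level within the beta cluster, had 26.5 to 28.3 CPM in knockout and 25.3 to 28.4 CPM in wildtype pools, with a log2 fold change of 0.05 ± 0.05 (SE; edgeR adjusted p = 0.734). Pcdhb22, the last gene of the cluster, had 27.5 to 28.8 CPM in knockout and 24.2 to 29.0 CPM in wildtype pools, with a log2 fold change of 0.10 ± 0.06 (SE; edgeR adjusted p = 0.46). Pcdhb8, the one beta gene with a negative value, had 9.01, 10.9, 9.92, 7.28 and 7.39 CPM in knockout pools, against 8.61, 9.51, 8.69 and 10.5 CPM in wildtype pools. Its knockout pools spanned the whole wildtype range, with a log2 fold change of -0.07 ± 0.13 (SE; edgeR adjusted p = 0.858).

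Among the C-types, 4 of 5 had a positive fold change and 2 had an unadjusted p under 0.05, beside 50.4% and 16.5% of all tested genes. Pcdhgc4 had 58.7, 63.8, 66.3, 76.3 and 72.8 CPM in knockout pools, against 62.9, 54.2, 58.1 and 56.3 CPM in wildtype pools. Knockout pool 1 lay among the wildtype pools and wildtype pool 1 was close to knockout pool 2. The fitted log2 difference came to 0.22 ± 0.07 (SE; edgeR adjusted p = 0.129). Without knockout pool 1, the pool that goes against the difference, the edgeR adjusted p was 0.0469. It was 0.164 without knockout pool 2 and 0.214 without wildtype pool 3. In the summed TPM the Pcdhgc4 difference was smaller, at 0.12 ± 0.11 on log2(TPM + 0.5) (SE, limma adjusted p = 0.664). Its most abundant transcript alone was at 0.22 ± 0.09 (SE, limma adjusted p = 0.502). Its other tested transcripts were at 0.20 ± 0.59 and -0.52 ± 0.26 (SE). The authors' deposited table gives 0.15 ± 0.12 for Pcdhgc4 (SE, q = 0.714). Pcdhac2 had 55.8, 62.8, 59.7, 59.3 and 60.7 CPM in knockout pools, against 58.0, 54.0, 47.4 and 53.7 CPM in wildtype pools. The ranges overlapped through knockout pool 1 and wildtype pool 1, and the fitted log2 difference of Pcdhac2 came to 0.16 ± 0.06 (SE; edgeR adjusted p = 0.168).

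Pcdhgc3, whose protein is known to act on dendrite growth and on Wnt signalling through Axin1, had 118 to 152 CPM in knockout and 118 to 135 CPM in wildtype pools, with a log2 fold change of 0.09 ± 0.07 (SE; edgeR adjusted p = 0.607). Pcdhac1 had a log2 fold change of 0.02 ± 0.14 and Pcdhgc5 of -0.01 ± 0.17 (SE; edgeR adjusted p = 0.961 and 0.993), both within their error. Together the C-types summed to 242.56, 262.03, 282.02, 270.86 and 299.87 CPM in knockout pools, against 254.34, 238.36, 253.31 and 243.03 CPM in wildtype pools. Again knockout pool 1 was the one knockout pool within the wildtype range, and the mean difference was 9.79%.

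The variable alpha genes showed no common direction. Over the 11 genes, 7 fold changes were positive and 4 negative, 0 had an unadjusted p under 0.05, and the sum was 130 to 153 CPM in knockout and 131 to 140 CPM in wildtype pools. Pcdha7 had 19.1 to 26.3 CPM in knockout and 20.1 to 27.1 CPM in wildtype pools, and Pcdha3 had 16.8 to 20.6 CPM in knockout and 16.6 to 20.4 CPM in wildtype pools. Their log2 fold changes were 0.00236 ± 0.106 and -0.00353 ± 0.0778 (SE; edgeR adjusted p = 0.996 and 0.990). Pcdha9 had 13.4, 16.4, 14.96, 20.6 and 17.2 CPM in knockout pools, against 13.0, 18.5, 13.1 and 12.7 CPM in wildtype pools. Its wildtype pools lay below all knockout pools except for wildtype pool 2, and its fitted log2 difference came to 0.21 ± 0.13 (SE; edgeR adjusted p = 0.498).

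Pcdha8 was the lowest alpha gene and varied most, with 0.51, 0.672, 3.15, 1.29 and 1.07 CPM in knockout pools, against 1.13, 0.845, 1.06 and 1.403 CPM in wildtype pools. Knockout pool 3 was above and knockout pools 1 and 2 below all wildtype pools. On the log2 scale the knockout minus wildtype difference was 0.26 ± 0.43 (SE; edgeR adjusted p = 0.836), and without knockout pool 3 it was -0.33. The most negative alpha values were -0.11 ± 0.14 for Pcdha11 and -0.06 ± 0.18 for Pcdha2 (SE; edgeR adjusted p = 0.778 and 0.922).

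The variable gamma genes held values in both directions. The 12 A-type genes had 6 positive and 6 negative fold changes and summed to 215 to 245 CPM in knockout and 209 to 234 CPM in wildtype pools. The 7 B-type genes had 2 positive and 5 negative, and summed to 111 to 122 CPM in knockout and 117 to 122 CPM in wildtype pools. Pcdhga3 had the smallest p of the family, with 31.3, 33.4, 33.2, 31.8 and 36.2 CPM in knockout pools, against 33.0, 26.1, 26.5 and 24.5 CPM in wildtype pools. Wildtype pool 1 stood within the knockout range and the other 3 wildtype pools were below it. The fitted log2 difference came to 0.27 ± 0.08 (SE; edgeR adjusted p = 0.107). Without wildtype pool 1, the pool that goes against the difference, the edgeR adjusted p was 0.0128. Without wildtype pool 3 the smallest edgeR adjusted p of any member was 0.214, that of Pcdhgc4.

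Its neighbour Pcdhga2 had a negative value, with 30.4, 24.7, 25.4, 25.4 and 32.3 CPM in knockout pools, against 32.5, 29.5, 31.2 and 35.3 CPM in wildtype pools. Knockout pools 2 to 4 lay below all wildtype pools and knockout pools 1 and 5 among them, with a log2 fold change of -0.22 ± 0.09 (SE; edgeR adjusted p = 0.235). On log2(TPM + 0.5) this was -0.11 ± 0.10 (SE; limma adjusted p = 0.677), and the authors' deposited table gives -0.055 ± 0.113 (SE; q = 0.929). Pcdhgb5 had 9.25, 10.95, 8.59, 9.91 and 7.14 CPM in knockout pools, against 10.4, 9.93, 10.7 and 14.5 CPM in wildtype pools. On the log2 scale the knockout minus wildtype difference was the most negative of the family on the counts, at -0.31 ± 0.14 (SE; edgeR adjusted p = 0.272). Wildtype pool 4 was far above the other wildtype pools, and without it the difference was -0.18. For Pcdhgb5 it was -0.099 ± 0.148 on log2(TPM + 0.5) (SE; limma adjusted p = 0.816), where Pcdhga1 had the most negative value of the family (-0.21 ± 0.11), and the authors' deposited table gives -0.055 ± 0.156 for Pcdhgb5 (SE; q = 0.949). Pcdhga11, the variable gamma gene with the highest level, had 35.1 to 42.9 CPM in knockout and 39.4 to 44.4 CPM in wildtype pools, with a log2 fold change of -0.04 ± 0.07 (SE; edgeR adjusted p = 0.86).

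Members differ in how much of their sequence is their own. Of the 31-base words (31-mers, the default word length of kallisto) in a member's annotated transcripts, the median share found in no other gene was 87.9% in the beta cluster, 51.0% in the gamma cluster and 35.5% in the alpha cluster. The median share of exonic bases that overlap the exons of another member was 0% in the beta cluster, 44.7% in the gamma cluster and 53.5% in the alpha cluster. Overlap with genes outside the family was not counted in this share. The lowest shares of unique 31-mers were 33.1% for Pcdhb12 in the beta cluster, 0.617% for Pcdhga10 in the gamma cluster and 7.77% for Pcdha4 in the alpha cluster. Reads from the constant exons cannot be told apart between the members of a cluster, and the sources used here do not say how the count table placed them. Near-identical stretches of neighbouring members, and antisense genes such as Gm37446 across Pcdhb12, are uncertain in the same way, since it is not stated whether counting used strand.

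The spread between pools of one genotype differed among the clusters. The median SD of log2 CPM within genotype was 0.143 for beta members, 0.241 for gamma members and 0.244 for alpha members, beside 0.118 for 13414 tested genes of the same range of levels. The ratio of each member's SD to the counting error its depth allows had a median of 2.55 in the beta, 5.44 in the gamma and 5.13 in the alpha cluster. For the genes of the same levels the median ratio was 3.17. Across the 56 tested members, the share of unique 31-mers had a Spearman correlation of -0.496 with this ratio and of -0.301 with the SD itself. Both are given as a description because members share exons and libraries. Some members lie apart from this relation, such as Pcdhga10, whose SD was 0.124, or 3.05 times the counting error, at the lowest share of unique 31-mers. In the TPM of the same pools, the median SD of log2(TPM + 0.5) was 0.127 for beta, 0.153 for gamma and 0.124 for alpha members. The added 0.5 narrows the spread of low members, and the alpha median covers 12 members, without Pcdha8. The SDs of the 2 tables are therefore not on the same footing.

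**Figure D4:**
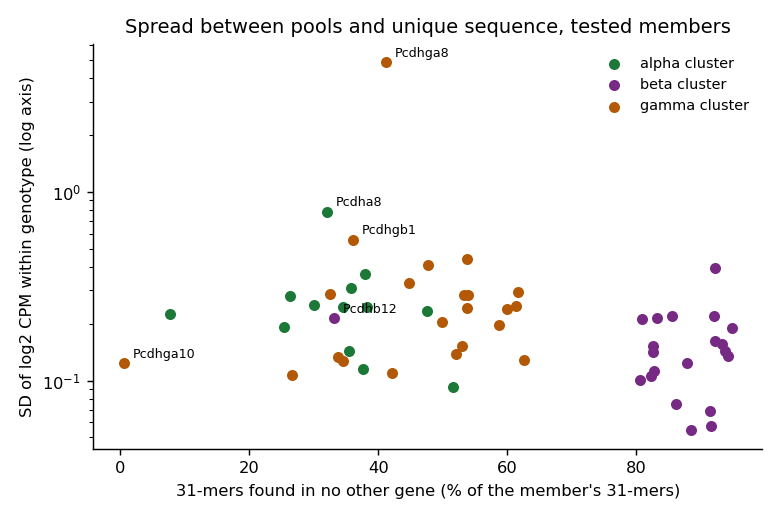
SD of log2 CPM within genotype (log axis) against the share of a member's 31-mers found in no other gene, for the 56 tested members. Beta members lie at high shares of unique 31-mers apart from Pcdhb12 (33.1%), and the widest spreads belong to Pcdhga8, Pcdha8 and Pcdhgb1.

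Some gamma members show where the count table and the transcript table part. Pcdhga8 was listed at 0 counts in knockout pool 1 and wildtype pool 2, against 564, 749, 711 and 645 counts in knockout pools 2 to 5 and 662, 656 and 653 counts in wildtype pools 1, 3 and 4. In the transcript table the same pools did not stand apart, with 3.67, 3.44, 3.97, 4.68 and 3.98 TPM in knockout pools and 4.36, 3.77, 4.09 and 4.87 TPM in wildtype pools. On the log2 scale the knockout minus wildtype difference was 0.27 ± 0.94 on the counts (SE; edgeR adjusted p = 0.929) and -0.10 ± 0.11 on log2(TPM + 0.5) (SE; limma adjusted p = 0.736), which differ in sign, and neither is larger than its error.

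Pcdhgb1 and Pcdhga4, which lie next to each other and share 54.6% and 66.8% of their exonic bases with other members, stood farthest apart in CPM in knockout pool 1 and wildtype pool 4. Pcdhgb1 had 6.82, 15.1, 12.3, 13.6 and 17.9 CPM in knockout pools, against 15.7, 12.3, 16.7 and 6.79 CPM in wildtype pools. Pcdhga4 had 20.1, 15.03, 13.8, 14.1 and 17.7 CPM in knockout pools, against 8.97, 12.9, 11.1 and 15.9 CPM in wildtype pools, so that knockout pool 1 and wildtype pool 4, lowest for Pcdhgb1, were the highest pools of their genotype for Pcdhga4. Among knockout pools 2 to 5 both genes had the same order of pools. Their sum ran from 26.1 to 35.5 CPM in knockout and from 22.7 to 27.8 CPM in wildtype pools. Pcdhga4 had the largest positive fold change of the gamma cluster on the counts, 0.40 ± 0.15 (SE; edgeR adjusted p = 0.202). On log2(TPM + 0.5), it was 0.13 ± 0.10 (SE; limma adjusted p = 0.587).

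**Figure D5:**
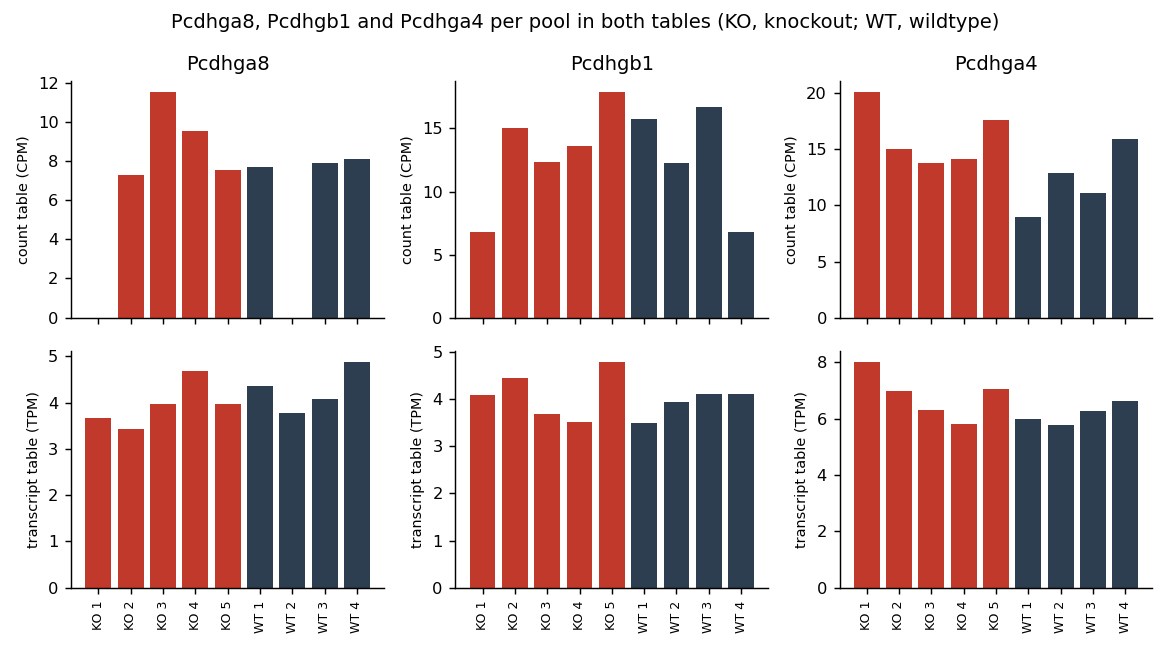
Pcdhga8, Pcdhgb1 and Pcdhga4 in each knockout and wildtype pool, as CPM from the count table (top) and TPM from the transcript table (bottom). The pools at 0 for Pcdhga8 and the low Pcdhgb1 pools of the count table are at ordinary levels in the transcript table.

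The transcript table is a second reading of the same libraries, and its beta sums again did not overlap. They were 122.34, 129.55, 129.68, 123.42 and 129.41 TPM in knockout pools, against 117.68, 112.12, 114.87 and 121.27 TPM in wildtype pools, a mean difference of 8.93%. The alpha sums of 62.9 to 74.2 TPM in knockout and 63.6 to 67.9 TPM in wildtype pools overlapped, as did the gamma sums of 187 to 228 TPM in knockout and 188 to 209 TPM in wildtype pools. Of 67 member transcripts tested with limma, 0 were called, where 0.178% of all tested transcripts were called; 3 had an unadjusted p under 0.05, all higher in knockout, beside 9.24% of all tested transcripts. With TPM summed per gene, limma called 0 of 55 members, where 2.16% of genes were called. At an unadjusted p under 0.05 there were 5 members, Pcdhac2, Pcdhb2, Pcdhb16, Pcdhb17 and Pcdhga3, all with higher values in knockout, beside 15.5% of all genes in either direction.

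The ranges were apart for 2 of the 55 members in the summed TPM, Pcdhb16 and Pcdhb17, against 7.89% of all genes. Pcdhb16 had 5.75, 6.24, 5.46, 6.28 and 6.12 TPM in knockout pools, against 5.38, 5.42, 4.36 and 5.16 TPM in wildtype pools, the lowest knockout pool lying just above the highest wildtype pool. On the log2 scale the knockout minus wildtype difference was 0.22 ± 0.09 on log2(TPM + 0.5) (SE; limma adjusted p = 0.295) and 0.24 ± 0.09 on the counts (SE; edgeR adjusted p = 0.181). Between the count and transcript tables, the members' log2 fold changes differed by a median of 0.02 in the beta cluster, 0.04 in the alpha cluster and 0.06 in the gamma cluster.

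The authors' deposited table, which holds 57 gene rows of the family (14 alpha, as Pcdha11 has 2, 21 beta and 22 gamma), listed a q-value under 0.05 for 1 member, Pcdhb16 (q = 0.0442), higher in knockout by 0.27 ± 0.08 (SE) on the log2 scale. Of all genes in the authors' deposited table, 1.46% had a q-value under 0.05. A p-value under 0.05 was listed for 12 members in the authors' deposited table, all higher in knockout, against 6.67% of all its genes with such a p-value and higher and 4.93% with lower values. Of these, 9 were among the 21 beta genes it lists, 2 were alpha genes (Pcdhac2 and Pcdha9) and 1 was a gamma gene (Pcdhga3). In the authors' deposited table, Pcdhb2 had the second smallest p-value of the family and a log2 value of 0.69 ± 0.24 (SE; q = 0.118).

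Other genes at the locus did not pass the test. Of 27 further genes annotated inside the locus 13 were tested and 0 were called by edgeR, beside 3.59% of all tested genes. An unadjusted p under 0.05 by edgeR was found for 1 of the 13, beside 16.5% of all tested genes. That gene was Gm10545, an antisense gene in the alpha cluster, with 0.379, 1.14, 0.492, 0.416 and 0.948 CPM in knockout pools, against 0.325, 0.259, 0.434 and 0.211 CPM in wildtype pools; it was chosen after its values were seen, and its adjusted p was 0.164. The readthrough genes Gm42416, Gm37013 and Gm37388, which join exons of several clusters in the annotation, had 0 counts in all pools. In the transcript table Gm42416 and Gm37388 were also listed at 0, whereas Gm37013 reached 3.03 TPM in a knockout pool (mean 0.624 TPM in knockout pools) and was listed at 0 in wildtype pools. Of the 13 flanking genes from Tmco6 to Arap3, 0 were called and 0 had an unadjusted p under 0.05, beside the same shares of all tested genes. A positive fold change was found for 4 of them, beside 50.4% of all tested genes. With 13 genes tested in each set, 0 called cannot be told from the share over all genes.

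Genes that act in promoter choice were compared next. Of 24 genes for CTCF, cohesin and its loaders, DNA methylation and silencing, 1 was called higher and 1 lower. Over all tested genes these shares were 1.34% and 2.25%. The list's median log2 fold change was -0.01. An unadjusted p under 0.05 by edgeR was found for 9 of the 24, against 16.5% of all tested genes. These held negative values, as for Rad21, Smc1a and Stag1 (-0.10, -0.10 and -0.12), and positive values, as for Tet1 and Tet3 (0.16 and 0.15), none of these 5 called. Uhrf1, which brings the maintenance methyltransferase to newly replicated DNA, had 25.7, 26.7, 29.9, 32.4 and 38.1 CPM in knockout pools, against 52.3, 56.5, 54.9 and 55.2 CPM in wildtype pools. All knockout pools were below all wildtype pools, and Uhrf1 fell by 0.84 on the log2 scale (SE 0.10; edgeR adjusted p = 0.000325). Dnmt3a, a de novo DNA methyltransferase, had 313, 311, 310, 304 and 313 CPM in knockout pools, against 274, 268, 237 and 275 CPM in wildtype pools, with no overlap. On the log2 scale the knockout minus wildtype difference was 0.23 ± 0.05 (SE; edgeR adjusted p = 0.0137), and 0.22 with an adjusted p of 0.0583 without knockout pools 1 and 2. The progenitor markers given above moved in the same pools as Uhrf1, and their part in it was not tested.

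Ctcf had 170 ± 4 CPM in knockout and 173 ± 13 CPM in wildtype pools, with a log2 fold change of -0.03 ± 0.05 (SE; edgeR adjusted p = 0.836). Dnmt1, the maintenance methyltransferase, had 142 to 164 CPM in knockout and 163 to 183 CPM in wildtype pools, with a log2 fold change of -0.20 ± 0.05 that did not pass the threshold (SE; edgeR adjusted p = 0.0577). Smchd1, a silencing factor known to bind the clusters in mice, had a log2 fold change of -0.04 ± 0.05 (SE; edgeR adjusted p = 0.802).

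Of 22 genes of proteins that signal with the protocadherins, such as the focal adhesion kinases and the WAVE complex, 1 was called higher and 0 lower. Over all tested genes these shares were 1.34% and 2.25%, and the list's median log2 fold change was 0.02. The gene called was Prkca, a protein kinase C gene that also marks rod bipolar cells. It had 85.5, 88.9, 90.6, 83.8 and 84.5 CPM in knockout pools, against 70.8, 77.1, 62.6 and 74.8 CPM in wildtype pools. The groups did not overlap, and its fitted log2 difference came to 0.28 ± 0.06 (SE; edgeR adjusted p = 0.0145). Without wildtype pool 1 its adjusted p was 0.0531, and without knockout pools 1 and 2 it was 0.0613. The focal adhesion kinase gene Ptk2, which gamma protocadherins are known to inhibit, had a log2 fold change of -0.02 ± 0.04 (SE; edgeR adjusted p = 0.891).

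Of 12 other genes known for self-avoidance or lamination in the retina, 1 was called higher and 0 lower, beside 1.34% and 2.25% of all tested genes. The list's median log2 fold change was 0.06. Dscaml1, a cell adhesion molecule that keeps retinal neurons of one type apart in mice, had 85.7, 87.1, 74.3, 76.1 and 75.2 CPM in knockout pools, against 72.0, 64.9, 60.5 and 68.6 CPM in wildtype pools. The groups did not overlap, its fitted log2 difference came to 0.26 ± 0.06 (SE; edgeR adjusted p = 0.0418), and the call was lost without knockout pool 1, 2 or 4 or wildtype pool 2, 3 or 4, with adjusted p-values of 0.0598 to 0.11. Megf10, which spaces starburst amacrine cells, had a log2 fold change of 0.10 ± 0.05 (SE; edgeR adjusted p = 0.37). Of the 12 non-clustered protocadherins 0 were called by edgeR and 4 had an unadjusted p under 0.05, beside 16.5% of all tested genes. Their median log2 fold change was 0.11. The smallest p was that of Pcdh10, with 129, 127, 127, 134 and 135 CPM in knockout pools, against 122, 119, 106 and 115 CPM in wildtype pools. Its groups did not overlap, and its log2 fold change came to 0.17 ± 0.05 (SE; edgeR adjusted p = 0.0653; DESeq2 adjusted p = 0.0126).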

How the data were processed

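The authors deposited whole-number counts per gene symbol for 5 knockout and 4 wildtype pools; which program produced these counts is not stated. Per the submitters' processing notes, reads were trimmed with Trimmomatic 0.39, quantified with kallisto 0.46.1 on GRCm38 and compared with sleuth 0.30.8. The deposited TPM (118489 transcript rows without identifiers) are a signal rescaled between pools by the authors, since their sums range from 953963 to 1083977. Rows without a symbol (1673) or with a symbol of digits (188) were left out. The authors' deposited comparison holds a p-value and a q-value for each gene, per the file headers; its effects are deposited on the natural log scale, positive where wildtype is higher (from Opn4), and were turned into log2 knockout minus wildtype.

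Counts were tested with edgeR 4.0.16 (filterByExpr, TMM, quasi-likelihood F test, two-sided, Benjamini-Hochberg at 0.05) in all 9 pools; CPM use TMM-scaled totals. Transcripts reaching a TPM of 1 in 4 or more pools went into limma 3.58.1 (trend) on log2(TPM + 0.5), which understates changes of low transcripts. DESeq2 1.42.0, other filters and scalings, pools left out and a replicate block were alternatives. Both tests were tested on simulated data. All 57 member gene IDs of the authors' table were found in GENCODE M21, which gave positions, shared exonic bases and 31-mers. Counting error is largest for low members. No 2 pools matched within sampling noise. Replicate numbers are labels: same-numbered pools did not deviate together (correlations 0.0041, -0.0359, 0.00129 and -0.0237).

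The members and gene lists were chosen with earlier results of these data known. Named genes are Opn4, called members, the 5 C-types, per cluster the 3 members highest in CPM and the 2 with the largest fold change in each direction, and per gene list the called genes or the one with the smallest p; others named were chosen after their values were seen. The result of 1 gene of the progenitor list is not reported here.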

Additional observations from a re-analysis of the deposited data

Results flagged for a closer look

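In 6 of 62 groups of pools checked for the named members, other named genes and cluster sums, 1 pool stood far from the others of its genotype; chance gives about 1 in 20. For Pcdha9, wildtype pool 2 had 18.476 CPM, above the other wildtype pools. For Pcdhb22, knockout pool 3 had 28.795 CPM, the highest of closely grouped knockout pools. For Pcdhga11, knockout pool 3 was lowest with 35.053 CPM. For Pcdhga8, wildtype pool 2 was listed at 0 CPM. For Pcdhgb5, wildtype pool 4 was highest with 14.526 CPM. For Dnmt3a, wildtype pool 3 was lowest with 236.85 CPM.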

How the results depend on the processing

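Under the count alternatives run, members called higher in knockout numbered 2 with DESeq2, 1 without knockout pools 1 and 2, and 0 to 1 when single pools were left out (Pcdhgc4 without knockout pool 1, Pcdhga3 without wildtype pool 1); members called lower numbered 0 throughout. The median log2 fold change of the alpha cluster was 0.14 without knockout pools 1 and 2 and -0.023 to 0.11 with single pools left out, 0.11 being without knockout pool 1; the beta median stayed at 0.12 to 0.17 and the gamma median at -0.04 to 0.02 with single pools left out. Without knockout pool 5, and under the replicate block, 5 alpha members instead of 9 had a positive fold change. Promoter-choice genes called lower numbered 2 under upper-quartile scaling, DESeq2, a mean CPM of at least 1, the robust fit and the replicate block, and 1 to 4 with single pools left out (4 without wildtype pool 3); those called higher numbered 0 without knockout pools 1 and 2. Signalling genes called higher numbered 0 without knockout pools 1 and 2 and 0 to 1 with single pools left out, and those called lower 0 to 1. Self-avoidance genes called higher numbered 0 with no low-count filter and without knockout pools 1 and 2, and 0 to 1 with single pools left out. Non-clustered protocadherins called higher numbered 1 with DESeq2 and without knockout pools 1 and 2. Of 391 values of named members, 28 had the other sign, all of members with a main value of at most 0.27 in size. Pcdha7 was at -0.0085 under upper-quartile scaling and -0.0069 with no low-count filter, and Pcdha3 at 0.025 without knockout pools 1 and 2. With single pools left out, the log2 fold changes ran from -0.075 to 0.073 for Pcdha7, -0.055 to 0.049 for Pcdha3, -0.13 to 0.0805 for Pcdhgc5, -0.063 to 0.11 for Pcdhac1, -0.16 to 0.091 for Pcdha2, -0.19 to 0.00801 for Pcdha11, -0.33 to 0.47 for Pcdha8, -0.065 to 0.013 for Pcdhga11 and -0.14 to 0.59 for Pcdhga8. The replicate block, fitted on pools 1 to 4 of each genotype although the numbers do not pair the pools, called 915 genes and 0 members, with Pcdhac1 at -0.038, Pcdha7 at -0.0396 and Pcdha2 at 0.093. DESeq2 called 1509 genes and no low-count filter 549, against 760; single pools left out gave 524 to 859. Limma called 0 member transcripts under every TPM alternative run, and 2 to 89 transcripts in all. The causes of these changes were not tested. Summed cluster levels and summed TPM per gene, with their alternatives, were chosen after seeing the data. Depth gives low members the largest counting error, although the spread of Pcdha8 between pools (SD 0.785 on log2 CPM) exceeded its counting error (0.149); the part of shared sequence in the spread of alpha and gamma members was not tested.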
